A study of Ovis aries with 13 samples.

Results

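FBP2 encodes the muscle form of fructose-1,6-bisphosphatase. Its transcript was followed on 13 arrays of sheep left ventricle, from fetuses near term and from newborn lambs. The array held 15008 different probes, of which 13407 could be given no gene name and 1 could be named as FBP2. The gene name column of the scanner files gives that probe only a cluster name, and 0 probes carry FBP2 there. The probe was therefore found by its identifier, A_70_P063416, and by its description in the files, which names isozyme 2 of the enzyme. It is 1 of 976 genes that could be named on the array. FBP2 was chosen because it was below the detection limit in the fetal group and detected in the newborn group, so that difference is described here and not tested. The limit meant here is the scanner software's mark for a signal well above background.

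Transcript levels were measured with 1 Agilent 1-colour array per animal, in 6 fetuses (day 142 of gestation) and 7 newborn lambs. The age field gives the newborns as day 1, while the protocol speaks of collection on the day of birth. The labels name no genotype, breed or treatment, and both groups were sampled as pieces of whole ventricle, which holds other cells besides heart muscle. Of the fetuses 2 were female and 4 male, and of the lambs 4 were female and 3 male. Animals are numbered in the labels, and 9 of them fall under just 4 numbers, told apart by letters and always within an age group. The sources used here do not say what a common number means. The animals of a group may therefore not be independent. Fewer cells of a type and less RNA per cell cannot be told apart in such tissue pieces.

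Fructose-1,6-bisphosphatase removes a phosphate from fructose-1,6-bisphosphate to give fructose-6-phosphate. It thus opposes phosphofructokinase, the enzyme that commits sugar to glycolysis, and the reaction is one of the steps that gluconeogenesis does not share with glycolysis. FBP1 is the form of liver and kidney, where glucose is made for the blood. FBP2 is the form of muscle, where the step is known for the making of glycogen from lactate and other carbon sources. Muscle lacks the liver enzyme of the last step, which releases free glucose.

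The FBP2 measurement rests on a single 60-base probe, printed here because no second probe for the gene could be found to check it. It is written as the files give it, with no capitals, since no part of it was set apart.

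A_70_P063416: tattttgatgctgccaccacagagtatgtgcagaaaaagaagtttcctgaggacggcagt

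The probe begins at base 671 of the assembled transcript from which it was designed, and 45% of its bases are G or C, against a median of 43.3% over the 15008 probes. Of the other probes, 0 share a run of 15 bases with it, and it was printed as 1 spot on each array. In the RefSeq gene table of the sheep assembly ARS-UI_Ramb_v3.0, FBP1 and FBP2 lie beside each other on chromosome 2 with 0 genes between them. Of the probes, 0 could be named as FBP1. Whether FBP1 transcripts bind the FBP2 probe was not tested, because no transcript sequence was used here.

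On the fetal arrays the FBP2 spot was hardly brighter than spots that should bind nothing. Before background subtraction its mean signal, in scanner units, was 46.1, 48.5, 49, 41.4, 41.9 and 50.3 on fetal arrays 1 to 6, or 46.2 ± 3.79 (SD, n = 6). The 77 negative control spots of the same arrays had means between 35.5 and 42.5 in this group. On 4 of the 6 fetal arrays (1, 2, 4 and 5) between 2 and 6 of the negative control spots were at least as bright as FBP2. On fetal 3 and fetal 6 FBP2 was brighter than all 77, where the brightest control spot reached 46.3 and 46.9. The scanner software called FBP2 well above background on 0 of the 6 fetal arrays. By its weaker mark, a positive and significant signal, it called FBP2 on fetal 3 and fetal 6 and on none of the other 4.

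On the newborn arrays the same spot was bright enough to measure. Its mean signal was 129, 161, 79, 139, 123, 101 and 272 on newborn arrays 1 to 7, or 143 ± 62.4 (SD, n = 7). The lowest of these, on newborn 3, lay above the highest fetal value of 50.3 and above the brightest negative control spot of its own array (54.7). FBP2 was well above background on 7 of 7 newborn arrays, and 0 of the 77 negative control spots reached it on any of them. The ratio of the group means of this unsubtracted signal was 3.1. The local background around the spot was 28.5 ± 10.7 in the fetal group and 25.4 ± 2.51 in the newborn group, with medians of 24 and 25. Fetal 2 had the highest local background, at 48, and its FBP2 spot stood at 1.01 times that value. The negative control means were 38.2 ± 2.35 and 37.4 ± 1.31. No FBP2 spot had an outlier mark or was saturated.

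**Figure D1:**
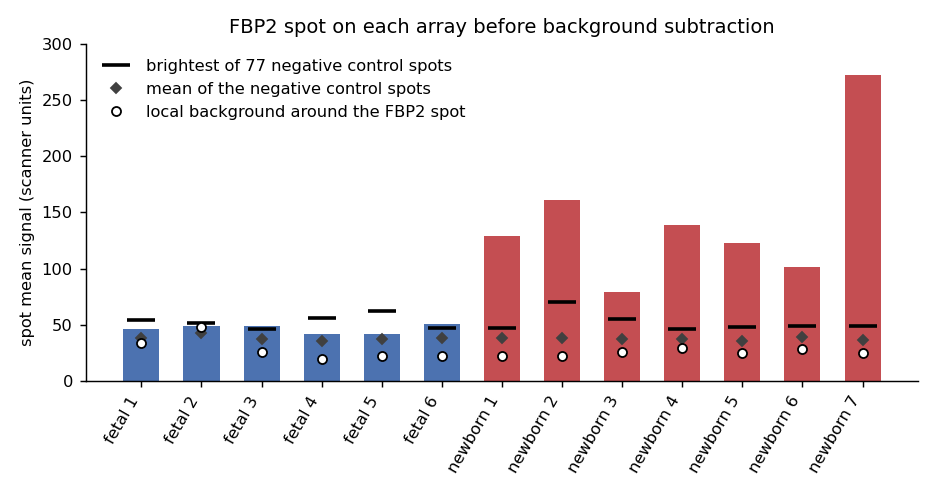
Mean signal of the FBP2 spot before background subtraction (bars, in scanner units) on the 6 fetal (blue) and 7 newborn (red) arrays, with the brightest (dash) and the mean (diamond) of the 77 negative control spots and the local background around the FBP2 spot (open circle). Fetal bars stand between 41.4 and 50.3, near the control spots, and newborn bars between 79 and 272, above every control spot.

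After the scanner software had subtracted background, the processed signal of FBP2 was 3.11, 3.31, 8.36, 3.02, 2.19 and 6.86 on fetal arrays 1 to 6. On 4 of these arrays (1, 2, 4 and 5) the software had replaced the measured value by a stand-in of about the size of its own error, 98.5% to 98.7% of the signal, and these values have no order. On fetal 3 and fetal 6, where the value was measured, the error was 30.5% and 33.6% of the signal. On newborn arrays 1 to 7 the processed signal was 83.1, 109, 33.8, 96.9, 76.2, 49.2 and 203, with an error of 10.1% to 13.4%. The highest newborn signal was thus 6.01 times the lowest, which is well beyond the error of a spot.

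Arrays were set on a common scale by taking log2 of the processed signal and subtracting each array's own 75th percentile, so a level of 0 is the signal that 75% of spots do not exceed. The FBP2 level was -6.48, -6.79, -5.25, -6.32, -7.12 and -5.57 on fetal arrays 1 to 6, and -1.63, -1.34, -3.37, -1.18, -1.84, -2.36 and -0.56 on newborn arrays 1 to 7. The groups did not overlap, and the lowest newborn level, on newborn 3, was 1.88 above the highest fetal level, on fetal 3. Every newborn array lay above every fetal array for 3.38% of the 10257 probes that could be tested and below for 3.51%, and nothing is read from these shares because FBP2 was chosen on the same contrast. The fetal mean was -6.25 ± 0.72 (SD, n = 6) and the newborn mean -1.75 ± 0.90 (SD, n = 7), a difference of 4.50.

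That difference overstates what was measured, since no fetal value was well above background and 4 of them are stand-ins. With each fetal array set to its dimmest probe that was well above background, FBP2 was 7.38-fold higher in the newborn group, taken here as a lower limit. It is approximate, since brighter probes can miss the mark. On fetal 4, where the dimmest marked probe was at -4.09, a probe of MYOG at -3.56 was not well above background. This bound compares means of log2 levels. Newborn 3, the lowest newborn array, stood 1.66-fold above the highest of these fetal limits, that of fetal 4. FBP2 was 1 of 2 probes, of 15008, that were well above background on 0 fetal and all 7 newborn arrays, and the other has no gene name here. The opposite pattern was found for 0 probes, and nothing is read from these counts because FBP2 was chosen on the same contrast. The difference was 4.10 within slide 1, with 4 fetal and 3 newborn arrays, and 4.86 within slide 2, with 2 fetal and 4 newborn arrays.

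**Figure D2:**
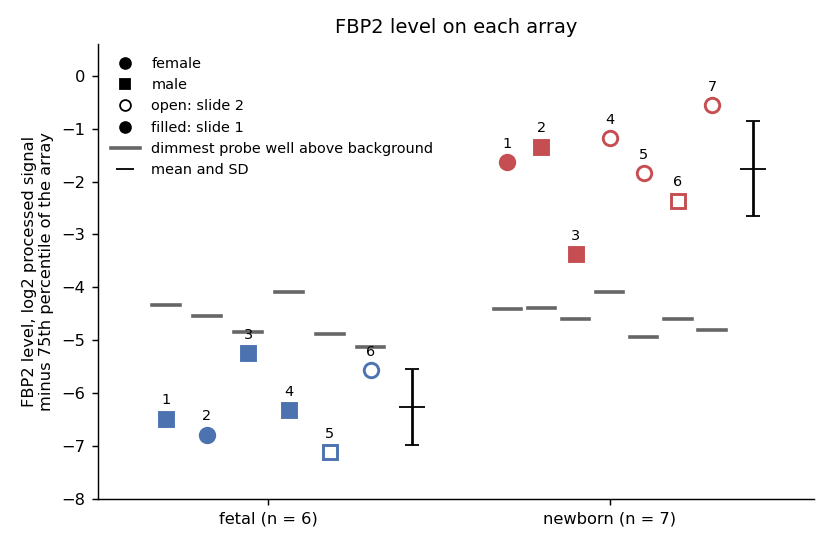
FBP2 level on each array (log2 processed signal minus the 75th percentile of the array), with circles for females, squares for males, filled symbols for slide 1 and open ones for slide 2, numbered by animal. Grey lines mark the dimmest probe well above background on each array, and bars the mean and SD. All 6 fetal points lie below their grey line and all 7 newborn points above it, from -3.37 to -0.56.

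The size of the difference differed with the background correction, and its direction was the same in each. Without any background subtraction the difference in log2 level was 1.68, and with normexp background correction and an offset of 50 it was 1.03. An offset close to the fetal spot signal itself makes differences of dim probes smaller by construction. In the other alternatives, none of which changed the background, the difference lay between 4.10 (within slide 1) and 4.86 (within slide 2), and with any 1 array left out between 4.30 and 4.77.

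In newborn ventricle FBP2 was of middling brightness. Between 41.3% (newborn 3) and 69.6% (newborn 7) of the probes on an array were dimmer, against 1.49% to 24.7% on the fetal arrays. A probe's brightness also depends on its sequence, so this is a place among spots and not an amount of transcript.

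FBP2 differed widely from lamb to lamb. Its SD over the newborn arrays was 0.90 on the log2 scale, against a median SD of 0.27 over all tested probes and of 0.25 over 1636 probes whose newborn mean lay within 0.5 of that of FBP2. Among those probes of like brightness 97.9% had a smaller SD. The levels in rising order were those of newborn 3, 6, 5, 1, 2, 4 and 7. Newborn 3, newborn 6 and newborn 7 stood apart from their neighbours by more than the error of the spots, while for 3 of the 6 neighbouring pairs (5 and 1, 1 and 2, 2 and 4) the intervals of signal plus or minus error overlapped. The error covers the reading of a spot, not the labelling or the hybridisation of a sample. Between newborn 3 and newborn 7 the level spanned 2.80, or 6.99-fold.

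Sex and slide, which played no part in the choice of FBP2, were compared among the newborn arrays. The 4 females were at -1.63, -1.18, -1.84 and -0.56, and the 3 males at -1.34, -3.37 and -2.36. The ranges overlapped, since the male newborn 2 lay above the females newborn 1 and newborn 5. The female mean was -1.30 ± 0.56 (SD, n = 4) and the male mean -2.35 ± 1.01 (SD, n = 3), a difference of 1.05 that did not pass an exact two-sided permutation test (p = 0.171, 0.343 adjusted over 2 comparisons). The smallest p that the 35 arrangements allow is 0.0571, so this design could not pass a threshold of 0.05. The difference was 0.55 without newborn 3 and 1.56 without newborn 2. Slide 2 stood above slide 1 by 0.63 (exact two-sided permutation p = 0.457, adjusted 0.457), and by -0.00 when newborn 3 was left out.

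The 5 newborns that share a number with another lamb were at -1.84 to -0.56, with a mean of -1.31 ± 0.49 (SD, n = 5). The 2 lambs with a number of their own, newborn 3 and newborn 6, had the lowest levels, -3.37 and -2.36. This grouping was noticed after the values were seen and was not tested. Both of these lambs were male and all 4 females shared a number, so sex and the sharing of a number cannot be told apart here except through newborn 2, a male with a shared number at -1.34. The lambs numbered alike were near one another in one case and not in the other, at -1.34, -1.18 and -1.84 in one set of 3 and at -1.63 and -0.56 in a pair.

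Of 24 tested genes of sugar metabolism and its regulation around the FBP2 step, 5 fell and 0 rose between the ages, and those that fell were mostly carriers of glucose into the cell. Among all 10257 tested probes 23.1% passed an adjusted p of 0.05 in limma, with 12.0% higher and 11.1% lower in newborn ventricle, and the counts of pathway genes below are read against these shares. Among 623 tested named genes the share was 23.4%, with 14.1% higher and 9.31% lower, and the median log2 change was 0.09. These values are from limma's moderated test with Benjamini-Hochberg adjustment over all tested probes, and each gene is represented by its brightest probe.

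Few genes of gluconeogenesis could be read. Of 12 genes listed beside FBP2, 2 had a probe and 1 was tested. PCK1, the cytosolic enzyme that makes phosphoenolpyruvate, was at -2.38, -1.92 and -0.86 (lowest, median and highest level) in fetal and at -2.65, -1.48 and -1.14 in newborn ventricle. Its groups overlapped along most of their range, and it differed by 0.14 (SE 0.275, adjusted p = 0.745), with 0 of 1 member at an unadjusted p under 0.05. G6PC1, the catalytic subunit that releases glucose in liver and kidney, was well above background on 1 of 6 fetal and 3 of 7 newborn arrays and was not tested.

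At the fructose phosphate step itself 0 of 3 tested genes passed, and 0 had an unadjusted p under 0.05. PFKM and PFKL encode the muscle and liver forms of phosphofructokinase, whose reaction FBP2 opposes. PFKM was at a mean level of 1.67 ± 0.20 (SD, n = 6) in fetal and 1.46 ± 0.28 (SD, n = 7) in newborn ventricle, a difference of -0.21 (SE 0.136, adjusted p = 0.274 in limma). PFKL differed by 0.03 (SE 0.112, adjusted p = 0.846). Both were well above background on all 13 arrays, in contrast to FBP2. ALDOA encodes the muscle aldolase, which splits the substrate of FBP2 or makes it from triose phosphates. It differed by 0.02 (SE 0.155, adjusted p = 0.941). The differences of ALDOA and PFKL, both near 0, took either sign under the alternatives tried.

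In the rest of glycolysis and lactate handling 4 of 8 tested genes fell, 0 rose, and 5 had an unadjusted p under 0.05. The median log2 change of the 8 was -0.26, against 0.03 over all tested probes. The 4 that fell were 3 glucose transporters and a hexokinase, which stand at the entry of glucose and thus upstream of the FBP2 step. SLC2A1, the transporter of fetal tissues, was well above background on 6 of 6 fetal and 4 of 7 newborn arrays and fell by 1.28 (SE 0.178, adjusted p = 5.5e-04). SLC2A4, the transporter that insulin brings to the surface of muscle cells, fell by 0.68 (adjusted p = 0.00303). SLC2A3 fell by 0.48 (adjusted p = 0.0117) and HK1, a hexokinase, fell by 0.45 (adjusted p = 0.00815). With normexp background correction 0 of the 8 passed.

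LDHA encodes the muscle form of lactate dehydrogenase, which links lactate to pyruvate. Its level was 2.67, 2.88 and 3.13 (lowest, median and highest) in fetal and 2.72, 3.52 and 3.86 in newborn ventricle, so the groups overlapped. It differed by 0.49 (SE 0.186, adjusted p = 0.0722), and it passed with newborn 1 left out (0.57, adjusted p = 0.0339) and with newborn 6 left out (0.60, adjusted p = 0.0154). ENO3, the muscle enolase, differed by 0.23 (adjusted p = 0.204), SLC16A1, a lactate carrier, by -0.07 (adjusted p = 0.671) and GAPDH by 0.04 (adjusted p = 0.862, sign not held under other scalings). The other tested probe of SLC16A1 differed by -0.42, so its probes did not give the same size of change.

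Of 4 tested genes of glycogen use, 0 passed and 1 had an unadjusted p under 0.05. That gene was PYGM, the glycogen phosphorylase of muscle, which was at 3.21, 3.28 and 3.56 in fetal and 3.13, 3.71 and 4.22 in newborn ventricle (lowest, median and highest level). It differed by 0.37 (SE 0.145, adjusted p = 0.0765) and passed only when newborn 3, the newborn array with the least FBP2, was left out (0.47, adjusted p = 0.0162). The phosphorylases of brain and liver, PYGB and PYGL, differed by -0.24 (adjusted p = 0.403) and -0.31 (adjusted p = 0.137). PHKG2, a subunit of the kinase that activates phosphorylase, differed by 0.23 (adjusted p = 0.136). The list of 21 genes also named glycogen synthase and the branching enzyme, which were among the 17 with no probe that could be named.

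Among 8 tested regulators known to act on gluconeogenic genes 1 fell, 0 rose, and 3 had an unadjusted p under 0.05. CEBPB, a transcription factor of gluconeogenic genes in liver, fell by 0.53 (SE 0.136, adjusted p = 0.0132). It did not pass with normexp background correction or without background subtraction, and it has no value in the authors' deposited table as used here, in which 0 of 5 regulators passed. The 3 brightest others were PPARGC1A, a coactivator of gluconeogenic and mitochondrial genes, NR3C1, the glucocorticoid receptor, and HSD11B1, which regenerates active glucocorticoid. PPARGC1A differed by -0.41 (adjusted p = 0.0943), NR3C1 by -0.16 (adjusted p = 0.489) and HSD11B1 by 0.18 (adjusted p = 0.67).

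**Figure D3:**
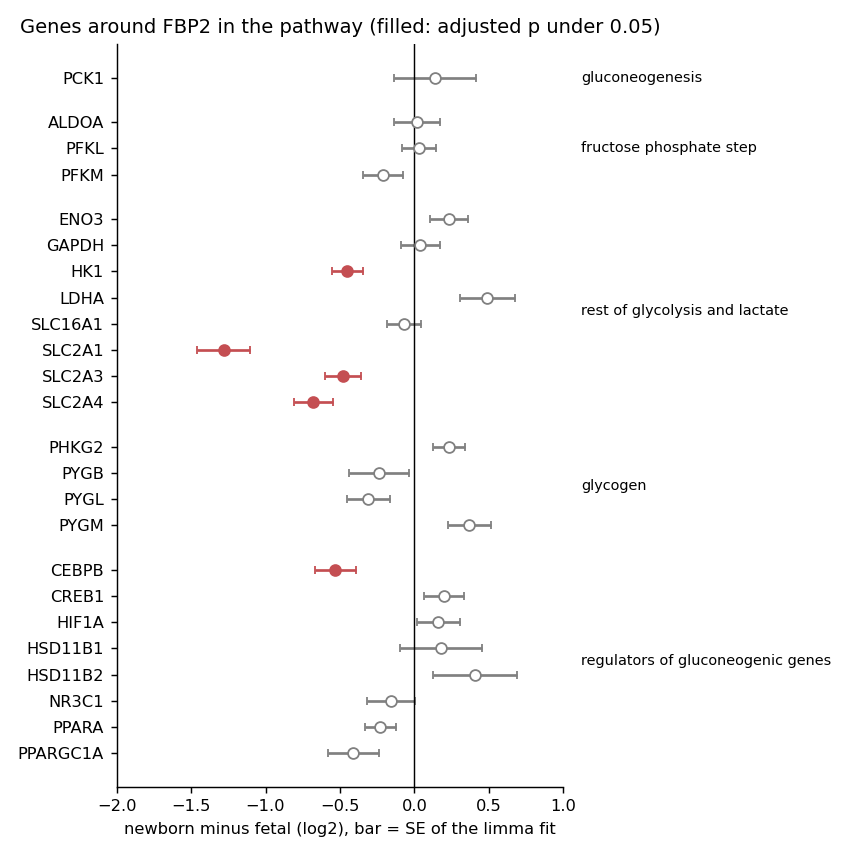
Newborn minus fetal log2 level of the 24 tested genes of the gluconeogenesis, fructose phosphate, glycolysis and lactate, glycogen and regulator lists, with the SE of the limma fit as bars and filled points for an adjusted p under 0.05. The 5 filled points all lie to the left of 0, from -1.28 for SLC2A1 to -0.45 for HK1, and FBP2, at 4.50 in measured means, is off this scale and not drawn.

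FBP2 is also a gene of skeletal muscle, so markers of that tissue were set beside it. Of 20 listed, 6 had a probe. MYH1 and MYH2, the heavy chains of fast skeletal fibres, were well above background on 0 of 13 arrays, in contrast to FBP2. Of the 4 tested, 3 rose and 0 fell, against 14.1% higher and 9.31% lower among all tested named genes. MYOG and MYOD1, the regulators of muscle differentiation, rose by 0.91 (adjusted p = 0.0173) and 0.43 (adjusted p = 0.0477), and MYL11, the fast light chain, rose by 0.31 (adjusted p = 0.0352). MYL11 did not pass when fetal 2, 5, 6 or newborn 2, 4, 5 was the array left out (adjusted p = 0.0582 to 0.0815), and MYOD1 passed with fetal 1, fetal 4 or newborn 3 left out but with no other array left out (adjusted p = 0.0555 to 0.101). In limma with the replicate number as a block the calls of MYOG (adjusted p = 0.0583), MYL11 (0.0772) and MYOD1 (0.0747) were lost too. With normexp background correction MYOG differed by 0.23, MYOD1 by 0.09 and MYL11 by 0.26, and none passed. Over all alternatives other than left-out arrays, MYOG passed in 10 of 14, MYL11 in 9 of 16 and MYOD1 in 3 of 15. The summed signal of the 6 markers, on the same log2 scale, ranged from 0.74 to 3.96 in fetal and from 1.14 to 5.35 in newborn ventricle. TNNC2, described below, alone reached 3.84 in fetal and 5.30 in newborn ventricle, so the top of the sum is mostly that gene.

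Newborn 3 was at opposite ends for MYOG and FBP2. MYOG was highest on newborn 3, at -1.51, where FBP2 was lowest, and on the other newborn arrays it lay between -3.36 and -2.40. Over the 7 newborn arrays FBP2 and MYOG had r = -0.52 and rho = -0.11, and without newborn 3 r was 0.39, so the sign rests on that lamb.

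TNNC2, fast troponin C, split the arrays in a way that crossed the age groups. It was at 3.77, 3.84 and 3.65 on fetal 1, 4 and 6 and at -0.72, -0.35 and -0.44 on fetal 2, 3 and 5. On the newborn arrays it was at 4.99, 4.63, 5.18 and 5.30 on newborn 1, 2, 4 and 5 and at -0.36, -0.46 and -0.14 on newborn 3, 6 and 7. FBP2 was not well above background on fetal arrays with high or with low TNNC2, and it was well above background on newborn arrays of both kinds. That outcome was fixed in advance, because FBP2 was chosen on the same contrast, and nothing is read from it. Newborn 7, with the most FBP2, had low TNNC2. Newborn 3 and newborn 6, with the least FBP2 of the newborns, also had low TNNC2. TNNC2 differed by 1.11 between the ages (SE 1.27, adjusted p = 0.551).

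**Figure D4:**
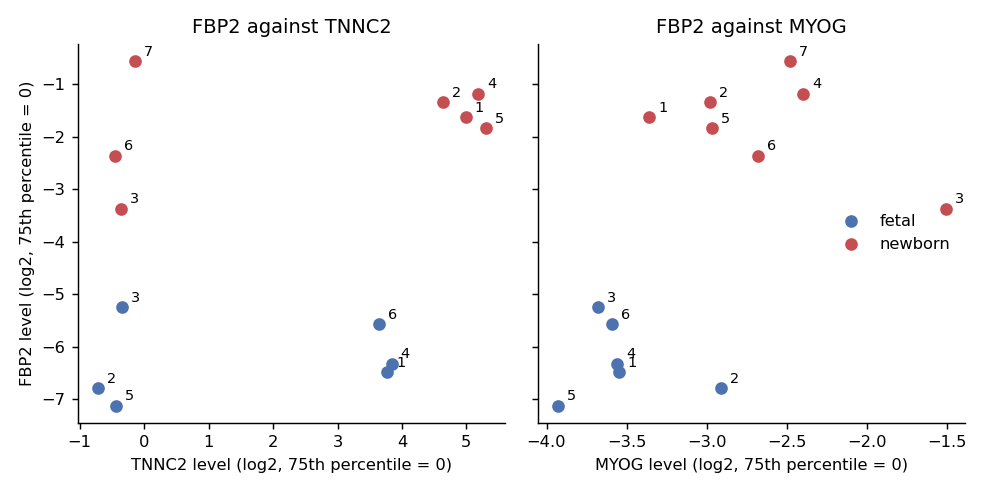
FBP2 level (vertical axis) against the levels of TNNC2 and MYOG (horizontal axes) on the 6 fetal (blue) and 7 newborn (red) arrays, all as log2 processed signal minus the 75th percentile, numbered by animal. TNNC2 divides both ages into a group below 0 and a group at 3.65 or more, while FBP2 divides by age, the contrast it was chosen on. Newborn 3 joins the highest MYOG to the lowest newborn FBP2.

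Markers of the other cell types that a piece of ventricle can hold were read in the same way. The 1 heart muscle marker that had a probe, MYH7, the slow heavy chain, was well above background on all 13 arrays and fell by 1.14 (SE 0.167, adjusted p = 7.7e-04), so the ventricular label rests on 1 of 18 markers here. Of 4 tested macrophage and monocyte markers 3 rose and 0 fell (CD14, FCER1G and FCGR1A), against 14.1% higher and 9.31% lower among all tested named genes. LYZ, the other tested marker, differed by 0.68 (limma adjusted p = 0.277). ITGAM had a probe but was well above background on 0 arrays and was not tested. With normexp background correction none of the 3 markers that rose passed, and with the replicate number as a block CD14 did not (limma adjusted p = 0.0685). FCGR1A was well above background on 2 of 6 fetal and 7 of 7 newborn arrays. The summed signal of the 5 with a probe ranged from -0.42 to 0.15 in fetal and 0.11 to 1.24 in newborn ventricle. FCER1G alone reached -0.16 in fetal and 0.76 in newborn ventricle. CNN1, calponin, the 1 smooth muscle marker with a probe, rose by 1.83 (adjusted p = 0.00729) and was highest, at 6.39, on newborn 3, where FBP2 was lowest. With normexp background correction CNN1 (1.76, limma adjusted p = 0.123) and MYH7 (-1.09, adjusted p = 0.134) did not pass. Of 5 liver markers with a probe, SERPINA1 was well above background on 0 arrays, ALB on 3 of 13, TTR on 2 of 13 and AHSG on 1 of 6 fetal and 4 of 7 newborn arrays. The summed signal of the 5 ranged from -0.06 to 0.48 in fetal and from -0.22 to 1.09 in newborn ventricle, and APOA1, the 1 tested, differed by -0.03 (adjusted p = 0.931). That sum is mostly APOA1, which alone reached 0.42 in fetal and 0.99 in newborn ventricle. Of 2 tested fat cell markers, PLIN1 and LEP, 0 passed and 0 had an unadjusted p under 0.05. The part of any of these cells in the FBP2 difference was not tested.

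The named genes whose levels ran most like FBP2 over all 13 arrays were INHA (r = 0.94, rho = 0.86), SLC25A20 (r = 0.91, rho = 0.74), PDXK (r = 0.90, rho = 0.88), CD86 (r = 0.89, rho = 0.85) and PSMB8 (r = 0.89, rho = 0.87), out of 609 with a value on every array. These are descriptions with no test, since the 13 arrays fall into 2 age groups that FBP2 was chosen to separate and any gene that differs with age resembles or opposes it. They also use the fetal FBP2 values, of which 4 are stand-ins with no order, so the order of these genes is not read. That all 5 were higher in the newborn group restates how they were chosen. INHA, the alpha subunit of inhibin, was at -0.28, -0.34, -0.75, -0.40, -1.70 and -0.84 on fetal arrays 1 to 6 and at 2.30, 2.53, 2.08, 2.55, 2.61, 1.02 and 2.69 on newborn arrays 1 to 7. Its groups did not overlap either, and it differed from FBP2 in being well above background on all 6 fetal arrays. Its group means differed by 2.97. SLC25A20, the carrier that brings acylcarnitine into mitochondria, was 1.17 higher in the newborn mean. Within the newborn group it had an r of -0.08 with FBP2, and of 0.88 without newborn 3, so its order among the lambs rests on that array. PDXK, the kinase that activates vitamin B6, was 1.62 higher and ran with FBP2 within the newborn group too, with r = 0.62 and rho = 0.96 (r between 0.54 and 0.94 with 1 lamb left out). CD86, a costimulatory protein of antigen-presenting cells, was 1.54 higher and was well above background on 4 of 6 fetal arrays, and PSMB8 of the immunoproteasome was 1.37 higher.

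Among the 7 newborn arrays alone, the named genes most like FBP2 were CYP17A1 (r = 0.92, rho = 0.86), IGFBP2 (r = 0.89, rho = 0.75), SFTPB (r = 0.87, rho = 0.82), GSTA1 (r = 0.86, rho = 0.89) and IGFBP5 (r = 0.84, rho = 0.71). The least like were MET (r = -0.94, rho = -0.96), COX5A (r = -0.87, rho = -0.86) and LCAT (r = -0.87, rho = -0.89). These are the ends of a list of 609 genes set against 7 arrays, over which the 5th percentile of r was -0.57 and the 95th percentile 0.69. Without newborn 3 and newborn 7, the arrays with the least and the most FBP2, r was 0.66 for CYP17A1, 0.35 for IGFBP2, 0.66 for SFTPB, 0.95 for GSTA1 and 0.41 for IGFBP5, so IGFBP2 and IGFBP5 resembled FBP2 mainly through those arrays. It was -0.88 for MET, -0.54 for COX5A and -0.58 for LCAT.

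These genes moved far less among the newborns than FBP2 did. CYP17A1, a steroid hydroxylase, ranged from -0.79 on newborn 3 to 0.17 on newborn 7, the same lambs that hold the ends of the FBP2 range. GSTA1, a glutathione transferase, ranged from -1.28 on newborn 6 to -0.48 on newborn 4. MET, the receptor of hepatocyte growth factor, ranged from -4.59 on newborn 4 to -3.27 on newborn 3 and was dim throughout. IGFBP5, which binds insulin-like growth factors, fell by 1.57 between the ages (SE 0.196, adjusted p = 2.4e-04), so it ran with FBP2 among lambs and against it between the ages. LCAT, which esterifies cholesterol, fell by 1.27 (adjusted p = 0.0216), a call lost without fetal 3 (adjusted p = 0.0531) or fetal 5 (adjusted p = 0.0509). With normexp background correction LCAT did not pass either (-0.75, limma adjusted p = 0.35). CYP17A1, IGFBP2, SFTPB, GSTA1, MET and COX5A did not pass for age.

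**Figure D5:**
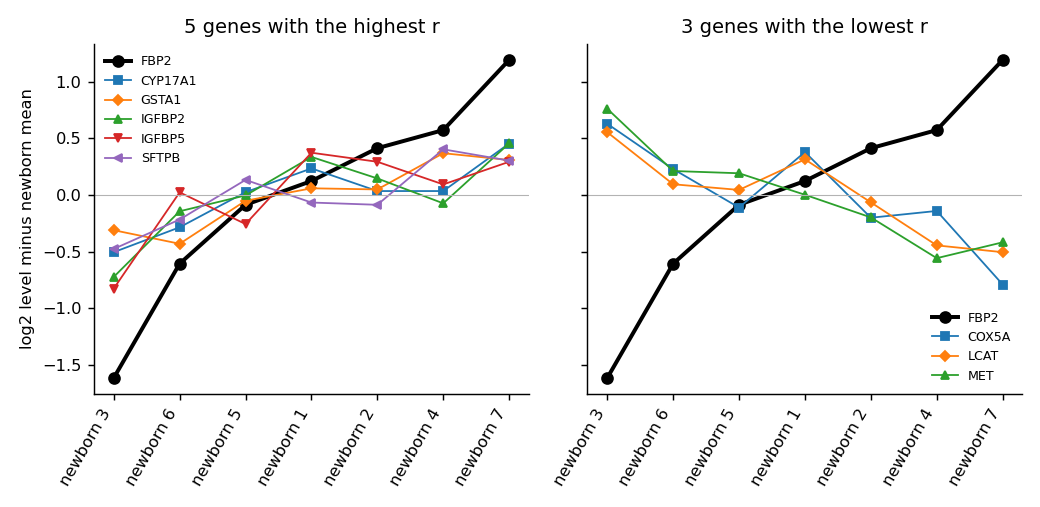
Log2 level minus the newborn mean on the 7 newborn arrays, in rising order of FBP2 (black), for the 5 named genes with the highest r to FBP2 (left) and the 3 with the lowest (right). FBP2 spans 2.80 from newborn 3 to newborn 7, and the other genes span less and follow or oppose it with exceptions.

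Of the pathway genes, PYGM (r = 0.70, rho = 0.61), ENO3 (r = 0.69, rho = 0.50) and ALDOA (r = 0.63, rho = 0.57) ran most like FBP2 over the 7 newborn arrays, all 3 being genes of muscle sugar metabolism. Without newborn 3, the lamb with the least FBP2, r was 0.28 for PYGM, 0.34 for ENO3 and 0.56 for ALDOA. These were their lowest values with any 1 lamb left out, and the highest were 0.98, 0.92 and 0.77. The likeness of PYGM and ENO3 thus depended on which lambs were included. LDHA had r = 0.50 (rho = 0.46), and 0.59 without newborn 3. SLC16A1 had r = 0.22 (rho = 0.43), and 0.98 without newborn 3. Of the opposing enzymes PFKM had r = 0.01 (rho = -0.04) and PFKL r = 0.20 (rho = 0.36), and without newborn 3 these were -0.77 and 0.67. PCK1 had r = -0.09 (rho = -0.29), or 0.42 without newborn 3, and SLC2A1 r = -0.46 (rho = -0.54), or -0.73. The highest r over all 7 newborn arrays, that of PYGM, was near the 95th percentile of all named genes, which was 0.69. The 7 arrays share their slides and animal numbers, and these values carry no test.

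The arrays were of like signal. Processed signals had a 75th percentile of 219 to 367 over the 13 arrays, and 62.7% to 71.4% of the probes were well above background. Newborn 3, with the least FBP2 of its group, had the highest 75th percentile of the newborns, 349, and newborn 7, with the most, had 300. Of all pairs of arrays 0 held identical values. Precision is limited by how many arrays there were.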

How the data were processed

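Each deposited scanner file gives intensity values per spot, made with Agilent Feature Extraction 10.1.1.1 per the file headers. One such intensity, the processed signal, has background subtracted by the authors' scanner software, and the mean signal and local background are raw intensity values. The labels' protocols describe Cy3 while the label field names Cy5, and the files hold 1 green channel. The authors' deposited log2 value table, judged from its values, holds log2 signals of 7041 probes, and the FBP2 probe is not among them. It served as an alternative.

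Levels are log2 processed signals less the array's 75th percentile. Outlier-marked and control spots were dropped, and the spots of a probe averaged. Tests took the probes that at least 6 arrays measured well above background (10257 of 15008), with limma 3.58.1 in R 4.3.3 and group as the only term. Of the probes, 1579 carried 1 gene name from the files, their accessions and the RefSeq gene table. For 31 of these 1579 the name was a LOC number only. Conflicting names were found for 22 probes, and 13407 had none. Files were read with data.table (version 1.17.8), pandas 2.3.3 and numpy 2.4.6, and figures drawn with matplotlib 3.10.9 in Python 3.11.15. The steps were tested on simulated data.

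FBP2 and the gene lists were chosen with earlier results of these data known. Genes are named by a rule: the tested members of the pathway and marker lists, the called regulators and the 3 brightest others, and the 5 named genes of highest r to FBP2 over 13 arrays, the 5 of highest and the 3 of lowest r over 7 newborn arrays. Other genes are named as untested members. A member of the fructose phosphate list is not reported here and not counted. Replicate numbers recur in both groups. Deviations from the group means of same-numbered arrays correlated at -0.07 to 0.05, above 0.1 for 0 of 6 pairs, so no pairing by number was seen. This check cannot show that same-numbered arrays share nothing but a number. The p-values measure the spread between animals that may not be independent.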

Additional observations from a re-analysis of the deposited data

Results flagged for a closer look

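FBP2 itself had no array that stood apart from its group by Dixon's 95% critical value. Of 102 sets of levels of 51 named genes in 1 age group, 6 had such an array, and chance gives about 1 in 20. SLC2A1 had its lowest fetal level on fetal 1, at -3.19, with the next at -2.79. COX5A had its highest fetal level on fetal 1 as well, at -0.87, with the next at -1.70. MYL11 had its highest newborn level on newborn 4, at 0.52, with the next at 0.22. CNN1 stood at 6.39 on newborn 3, with the next at 4.17, and that lamb had the lowest newborn FBP2. INHA and PDXK, which are among the genes most like FBP2 over all arrays, both had their lowest newborn level on newborn 6, at 1.02 and 2.23, with the next at 2.08 and 3.06. FBP2 was second lowest of the newborns there.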

How the results depend on the processing

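The FBP2 difference between the ages kept its direction in 8 alternatives with all arrays, with the replicate block, within each of the 2 slides and in 13 fits with 1 array left out. It moved from 4.50 to 1.03 with normexp background correction and to 1.68 without background subtraction, and with 1 array left out it lay between 4.30 and 4.77. With 1 newborn left out, female minus male lay between 0.55 and 1.56 and slide 2 minus slide 1 between -0.00 (without newborn 3, exact permutation p = 1) and 1.01. Of 10257 tested probes 2366 passed in limma, 48 with normexp and 1326 with the replicate number as a block, which changed no count of a pathway list and, of the named genes that passed, ended the calls of MYOG, MYL11, MYOD1 and CD14, and 1726 to 3116 passed with 1 array left out. Normexp left 0 of 8 genes of glycolysis and lactate and 0 of 8 regulators. Without background subtraction 0 of the 8 regulators passed, as did 0 of the 5 in the deposited table, CEBPB not being one of them. Glycogen genes numbered 0 to 1 and glycolysis genes 4 to 5 with 1 array left out. Some differences, none of which passed, changed sign. With normexp these were PCK1 (-0.01), SFTPB (-0.00) and LEP (-0.03). With quantile normalization, the deposited table, slide as a block and sex as a covariate, ALDOA was at -0.16, -0.10, -0.04 and -0.03 and GAPDH at -0.06, -0.06, -0.05 and -0.01. With the replicate block PFKL was at -0.02, ALDOA at -0.02 and GAPDH at -0.03, and with animal number as a random block ALDOA was at -0.02 and APOA1 at 0.00. Within slide 1, PFKL was at -0.04, ALDOA at -0.13, GAPDH at -0.13, PLIN1 at -0.01 and LEP at -0.13, and within slide 2, PYGB was at 0.00, MET at -0.05, APOA1 at 0.16 and LYZ at -0.22. In the main fit PYGB was at -0.24, MET at 0.31 and LYZ at 0.68, which is not near 0. The mean of the GAPDH probes gave -0.08. With 1 array left out, PFKL lay between -0.02 and 0.10, ALDOA between -0.06 and 0.10, GAPDH between -0.03 and 0.11, SFTPB between -0.00 and 0.32, HSD11B1 between -0.00 and 0.33 and APOA1 between -0.18 and 0.08. The causes were not tested. Of 1428 values of 50 single genes 1304 kept direction and call, and 0 of the 20 genes that passed changed sign. Signal over background limits FBP2 most, since none of its fetal values was well above background and its fold has only an approximate lower limit.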
